A study of Gnathonemus petersii with 18 samples.

Results

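The genes described here encode nuclear parts of oxidative phosphorylation, the mitochondrial process that turns the energy of food into ATP. They were chosen by a rule on gene symbols, set with earlier results of these data known. The rule took all genes whose symbol starts with nduf followed by a, b, c, s or v, or with uqcr, cycs or atp5. It also took those starting with cox and a digit from 4 to 8, together with sdha to sdhd and cyc1. The choice found 61 genes among the 28031 of the table: 7 core subunits, 29 accessory subunits and 8 assembly factors of complex I, 4 subunits of complex II, and 13 genes of complex V, the ATP synthase. No symbol of complex III, complex IV or cytochrome c was among them (0 of 61), and neither those complexes nor the subunits encoded by mitochondrial DNA were analysed here. In all, 17658 genes carried only a locus identifier and could not be chosen by symbol. The groups of complexes I, II and V may therefore lack subunits.

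The animal is Gnathonemus petersii, the elephantnose fish, which navigates by weak electric discharges. Bulk RNA sequencing covered 3 of its tissues, namely trigeminal ganglion, cerebellum and spinal cord, with 6 libraries per tissue (18 libraries). Per the labels they came from 6 fish; no genotype, treatment or age is given. Library titles name the cerebellum as brain. In bulk tissue more cells of a type and more RNA per cell cannot be told apart.

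Complex I takes electrons from NADH and complex II takes them from succinate, a step it shares with the citric acid cycle. Complexes I, III and IV pump protons across the inner mitochondrial membrane, and the return of protons through the membrane sector of complex V drives ATP synthesis in its F1 head. Neurons draw much of their ATP from this process, which restores the ion gradients that signalling runs down.

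Library totals were 10413024 to 14183733 counts for the ganglion, 10953416 to 17587837 for the cerebellum and 10346375 to 13379441 for the spinal cord. Summed TPM (the authors' transcript abundance, corrected for gene length) of the ganglion markers isl1, isl2, prph and avil was 645 to 1015 in the ganglion libraries and at most 52.3 elsewhere. The summed cerebellum markers (pax6, fat2, en2, gabra6 and cbln1) and spinal cord markers (hoxa9, hoxc8, hoxb8, slc18a3 and mnx1) were likewise highest in their own tissue, at 780 to 962 and 538.5 to 768 TPM. A single marker went against its label: cbln1 was higher in the spinal cord (17.9 ± 1.88 CPM, SD, n = 6) than in the cerebellum (4.82 ± 1.06 CPM), by log2 1.89 (edgeR adjusted p = 5.74e-05). Ganglion replicate 5 stood apart: the mean Spearman rho to the rest of its tissue was 0.872, where replicates 1, 2, 3, 4 and 6 had 0.923 to 0.938, and its TMM scaling factor was 0.611. Replicate 2 had the next lowest factor, 0.814. Many, not all, counts and named genes are given without these libraries where a call is lost or a value moves by over 1.5 times. The muscle gene acta1 reached 3782 TPM in ganglion replicate 1 and 142 to 1783 TPM in the spinal cord libraries, against at most 1.40 TPM in the cerebellum.

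Under TMM scaling most of these genes were higher in the trigeminal ganglion than in either part of the central nervous system. Most of the 2-fold calls were lost with scaling within bins of gene length or with limma on TPM. Limma, used without TMM scaling, also moved the median of all genes down, to −0.52 against the cerebellum and −0.37 against the spinal cord. DESeq2 median-of-ratios size factors kept the 2-fold calls, at 38 against the cerebellum and 41 against the spinal cord. Of all genes 29.6% and 15% were then called higher. Like TMM, these size factors give 1 value per library, so they cannot show how the calls depend on gene length. A gene was called where its adjusted p in the edgeR quasi-likelihood F-test, Benjamini-Hochberg adjusted over all 20691 genes tested, was under 0.05 and it differed at least 2-fold. All 61 genes were tested. Against the cerebellum 38 of the 61 rose and 0 fell, where 29.6% of all tested genes were called higher and 22.3% lower. Against the spinal cord 41 rose and 0 fell, where 14.5% of all genes were called higher and 17.3% lower. With scaling within bins of gene length, an alternative chosen after seeing the data, 7 and 6 genes rose against cerebellum and spinal cord, where 28.3% and 12.8% of all genes were called higher. Limma on log2(TPM + 1) called 10 and 17 higher, where 15.2% and 5.92% of all genes were, and without ganglion replicates 2 and 5 the edgeR test called 22 and 30, where 28.3% and 10.7% were. The median log2 fold change of the 61 genes was 1.13 against the cerebellum and 1.18 against the spinal cord, beside 0.07 and −0.01 over all genes tested. The ganglion libraries are the same in both comparisons, so these are not independent of each other. The CPM (counts scaled to library size with TMM factors) ranges of the tissues did not overlap for 43 genes higher and 1 lower in the ganglion than in the cerebellum (24.1% and 23.8% of all genes) and for 50 higher and 0 lower than in the spinal cord (13.4% and 16.6%). The edgeR counts with no minimum fold were 50 higher and 3 lower against the cerebellum, where 37.6% and 33% of all genes were called, and 56 higher and 1 lower against the spinal cord, where 25.1% and 25.2% were.

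**Figure D1:**
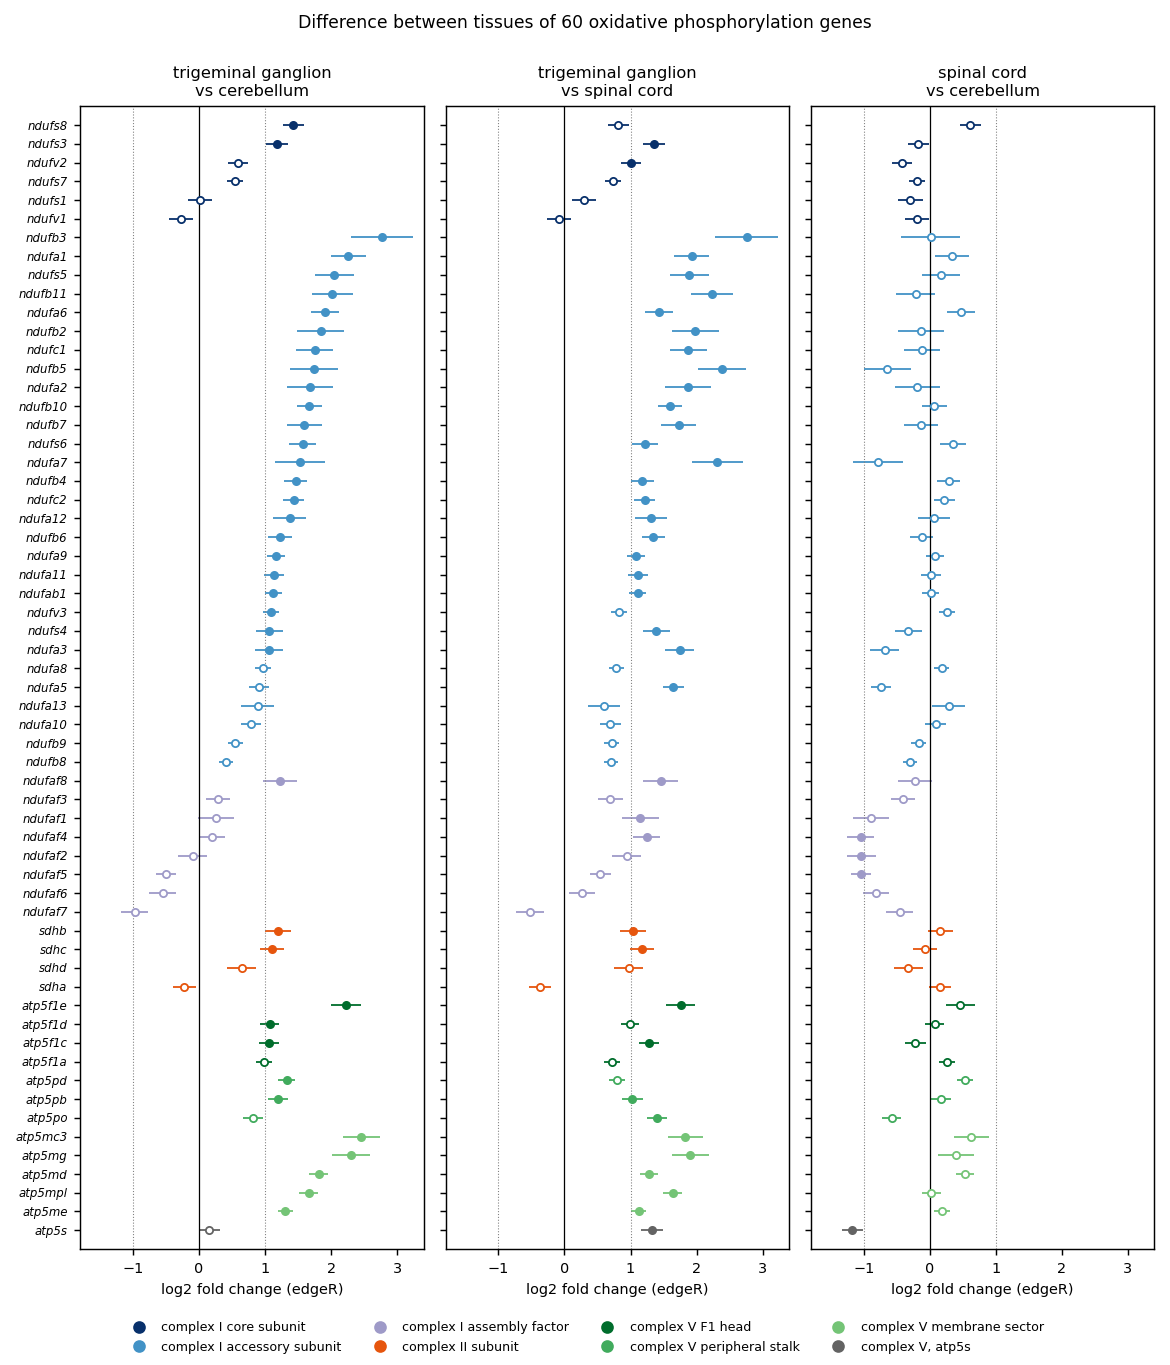
Log2 fold change of 60 of the 61 genes (rows, grouped by complex) in the 3 comparisons, with bars of 1 standard error; filled points passed both thresholds and dotted lines mark a 2-fold difference. Called genes lie right of 0 in both ganglion comparisons, with 38 and 40 of those shown called, while spinal cord against cerebellum has 4 called, all left of 0.

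As a share of all TPM, the 61 genes summed to 2.45% ± 0.399 (SD, n = 6) in the ganglion, 1.49% ± 0.107 in the cerebellum and 1.28% ± 0.0748 in the spinal cord. The lowest ganglion library was at 2.00%, above the highest cerebellum library at 1.68%. That lowest library was replicate 1, the ganglion library highest in acta1. The next lowest was replicate 3 at 2.05%, the ganglion library lowest in acta1 (4.68 TPM).

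The complex V membrane sector had the highest median of the groups of subunits. All 5 genes of its membrane sector rose against both tissues, with a median log2 fold change of 1.81 against the cerebellum and 1.64 against the spinal cord. With scaling by length 2 and 1 of the 5 rose, at medians of 0.91 and 0.74. For this and every group below, 29.6% and 14.5% of all genes were called higher against cerebellum and spinal cord. The shares were 28.3% and 10.7% without ganglion replicates 2 and 5, and 28.3% and 12.8% with scaling by length. The summed TPM of this sector was 4312 ± 701 in the ganglion, 1838 ± 245 in the cerebellum and 1978 ± 113 in the spinal cord (SD, n = 6 each). atp5mc3 encodes subunit c, which forms the proton-driven rotor ring. Its CPM was lowest at 313, had a median of 488 and was highest at 1200 in the ganglion. In the cerebellum it ran from 86.1 through a median of 107 to 153 CPM, and in the spinal cord from 148 through 160 to 207 CPM. No ganglion library overlapped another tissue. The log2 fold change was 2.46 ± 0.277 (SE) against the cerebellum (edgeR adjusted p = 1.8e-07) and 1.83 ± 0.271 against the spinal cord (edgeR adjusted p = 1.25e-05), and 1.86 and 1.24 without ganglion replicates 2 and 5.

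atp5mg, which encodes subunit g, had the highest mean TPM of the complex V genes over the 18 libraries, though not within the cerebellum, where atp5f1c was at 631 and atp5po at 629 TPM. It was at 1641 ± 598 TPM in the ganglion, 566 ± 84.6 in the cerebellum and 645 ± 36.0 in the spinal cord. Its CPM was 417, 614 and 1829 as the lowest, median and highest ganglion library. The highest cerebellum library was at 224.5 and the highest spinal cord library at 253 CPM, so the groups did not overlap. Its log2 fold change was 2.30 ± 0.285 and 1.90 ± 0.281 (edgeR adjusted p = 6.29e-07 and 1.25e-05, against cerebellum and spinal cord in turn), and 1.61 and 1.21 without ganglion replicates 2 and 5. The small membrane-sector genes atp5md, atp5me and atp5mpl rose by log2 1.81, 1.31 and 1.66 against the cerebellum.

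The F1 head, where ATP is made, had 4 genes here: atp5f1a, atp5f1c, atp5f1d and atp5f1e. No atp5f1b, the symbol of its beta subunit, was among the 61. Of the 4, 3 rose against the cerebellum and 2 against the spinal cord. Of all genes 29.6% and 14.5% were called higher. Without ganglion replicates 2 and 5, 2 and 3 of 4 rose, where 28.3% and 10.7% of all genes were called. Scaling by length left 1 and 0, where 28.3% and 12.8% of all genes were called. atp5f1e, the small epsilon subunit, rose by log2 2.22 ± 0.228 against the cerebellum, with 307 to 968 CPM in the ganglion and 89.0 to 141 CPM in the cerebellum. atp5f1a, the alpha subunit, had log2 values of 0.98 and 0.72, under the 2-fold threshold in both comparisons, although its ganglion libraries did not overlap either tissue. In the peripheral stalk, which holds the head against the rotor, 2 of 3 genes rose in each comparison, 1 of 3 without ganglion replicates 2 and 5, and 0 of 3 with scaling by length. With all ganglion libraries, atp5pb rose in both, atp5pd against the cerebellum alone and atp5po against the spinal cord alone. Whether the latter 2 genes differ between the comparisons was not tested.

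**Figure D2:**
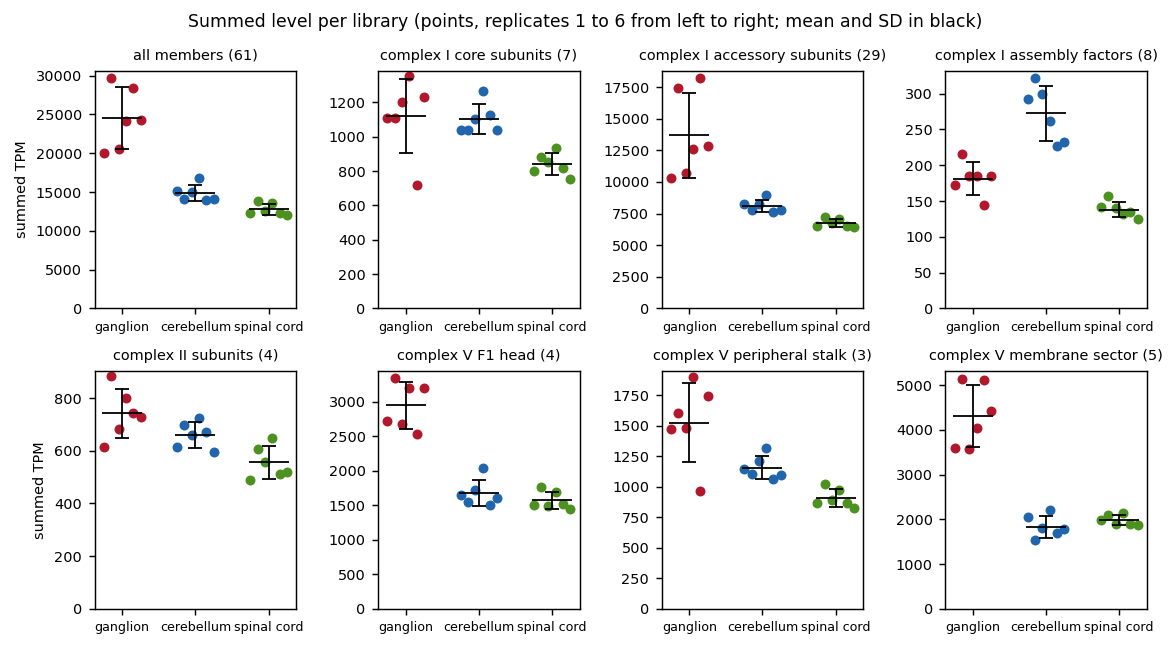
Summed TPM per library for each group of genes, with 6 libraries per tissue. The complex V membrane sector and the complex I accessory subunits lie higher in the ganglion, while the core subunits of complex I overlap between ganglion and cerebellum.

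The accessory subunits of complex I, which surround its catalytic core, had the next highest median under TMM scaling with all libraries. Of 29, 23 rose against the cerebellum and 23 against the spinal cord, beside 29.6% and 14.5% of all genes, with medians of 1.43 and 1.39. Without ganglion replicates 2 and 5, 13 and 15 rose, and with scaling by length 4 and 4. The medians without these replicates were 0.94 and 1.01, below the F1 head of complex V at 1.04 and 1.12. With scaling by length they were 0.53 and 0.60, beside 0.62 and 0.57 for the F1 head. All 29 accessory subunits passed adjusted p under 0.05 in the higher direction with no minimum fold in both comparisons. With scaling by length 16 were higher against the cerebellum at that threshold and 2, ndufb8 (−0.47) and ndufb9 (−0.33), were lower. Of all genes 36.3% were higher and 33.8% lower there. Against the spinal cord 19 were higher and 0 lower, where 24.1% and 23.8% of all genes were. ndufb3, a subunit of the membrane arm, had the largest fold change of the 61 genes in both: 2.77 ± 0.473 and 2.76 ± 0.474 on the log2 scale (edgeR adjusted p = 3.35e-05 and 6.89e-05). Its ganglion libraries ran from 72.8 through a median of 108 to 822 CPM, the highest being replicate 5. Cerebellum libraries ran from 33.5 through 37.5 to 42.7 CPM and spinal cord libraries from 33.9 through 37.7 to 43.7 CPM. The groups did not overlap, but the ganglion spread was far wider than that of the other tissues. Without replicate 5 its log2 values were 1.94 and 1.92, the former below atp5mc3 at 2.15, and without replicates 2 and 5 they were 1.32 and 1.31.

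ndufa1, another membrane-arm subunit, had the highest mean TPM of the complex I genes over the 18 libraries, though ndufb9 was above it in the cerebellum (777 TPM) and in the spinal cord (596 TPM). It was at 1277 ± 417 TPM in the ganglion, 451.5 ± 53.1 in the cerebellum and 489 ± 29.7 in the spinal cord. Its CPM in the ganglion was 190, 285 and 778 as lowest, median and highest, against at most 91.2 in the cerebellum and 107 in the spinal cord. The log2 fold changes were 2.26 ± 0.268 and 1.93 ± 0.264 (edgeR adjusted p = 3.52e-07 and 5.13e-06), and 1.64 and 1.31 without ganglion replicates 2 and 5.

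ndufb11 rose by log2 2.02 ± 0.308 and 2.23 ± 0.311 (edgeR adjusted p = 8.96e-06 and 6.21e-06), with ganglion libraries from 89.5 through 119 to 449 CPM, cerebellum from 37.9 through 46.4 to 52.6 CPM and spinal cord from 36.5 through 39.6 to 41.7 CPM. ndufb5 rose by 1.74 ± 0.357 and 2.38 ± 0.366 (edgeR adjusted p = 0.000235 and 1.95e-05), from 80.8 through 107 to 446 CPM in the ganglion, 42.4 through 56.0 to 69.3 in the cerebellum and 30.1 through 36.8 to 40.4 in the spinal cord. Without ganglion replicates 2 and 5, ndufb11 was at 1.22 and 1.44 and ndufb5 at 0.74 and 1.39, so that ndufb5 was no longer called against the cerebellum. Both are membrane-arm subunits whose ganglion libraries lay above every library of the other tissues.

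ndufa7, a subunit of the peripheral arm, rose by 2.31 ± 0.389 against the spinal cord (edgeR adjusted p = 5.45e-05), with 122, 169 and 857 CPM as lowest, median and highest in the ganglion and 55.2, 68.8 and 82.5 CPM in the spinal cord. Against the cerebellum, at 95.6, 121 and 128 CPM, its libraries overlapped those of the ganglion, and without ganglion replicate 5 the log2 value was 0.996 in place of 1.53, under the threshold. Without replicates 2 and 5 its values were 0.39 and 1.18.

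**Figure D3:**
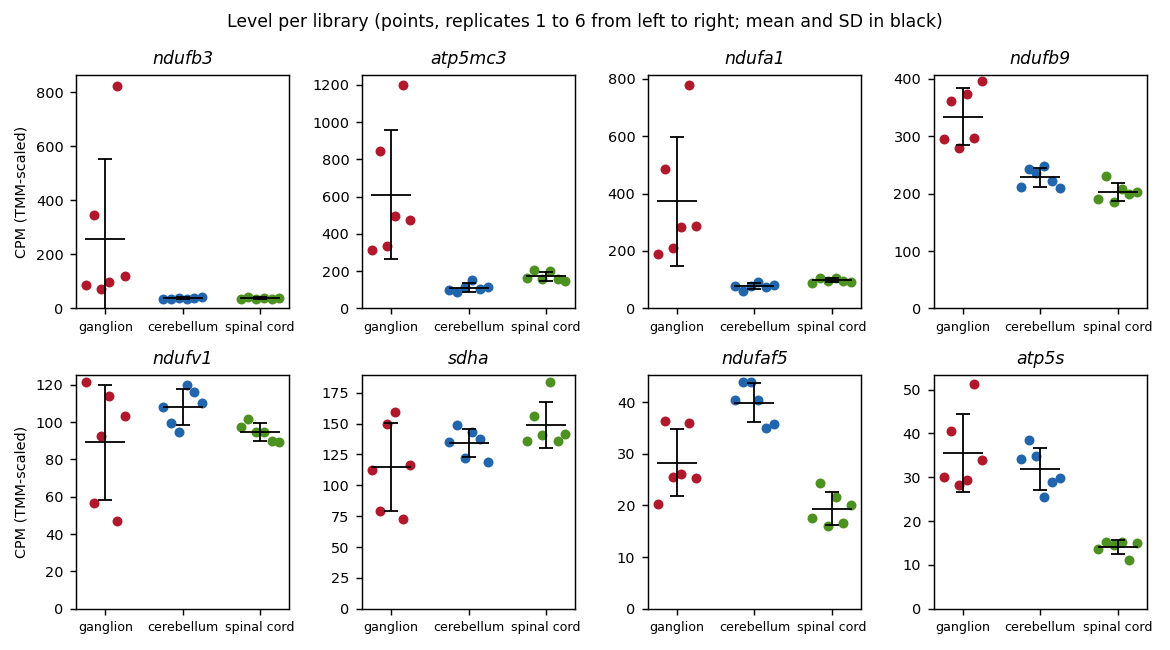
CPM (TMM-scaled) in each library for 8 genes, with points for replicates 1 to 6 from left to right and the mean and SD in black. ndufb3, atp5mc3 and ndufa1 lie higher in all ganglion libraries, ndufv1 and sdha overlap between tissues, and atp5s is lowest in the spinal cord.

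The core subunits of complex I, which carry the flavin and iron-sulfur clusters that pass electrons, differed less. Of 7, 2 rose against the cerebellum, ndufs3 (1.19) and ndufs8 (1.43), and 3 against the spinal cord, among them ndufs3 (1.36) and ndufv2 (1.00, and 0.98 with the replicate number as a block, under the threshold). Beside these stand 29.6% and 14.5% of all genes called higher. Without ganglion replicates 2 and 5, 1 and 3 rose, and with scaling by length 0 and 0. The group medians were 0.55 and 0.81. ndufv1, the NADH-binding subunit, was at 46.8, 97.7 and 121.5 CPM as lowest, median and highest in the ganglion, against 94.9, 109 and 120 CPM in the cerebellum. Its log2 values were −0.28 ± 0.184 and −0.09 ± 0.184 (edgeR adjusted p = 0.182 and 0.721). Ganglion replicates 5 and 2 held its lowest values, 46.8 and 56.6 CPM, and without them the value against the spinal cord was 0.19. ndufs1, the largest core subunit, ran from 59.0 through 141 to 182 CPM in the ganglion and from 117 through 127 to 155 CPM in the cerebellum, with log2 0.01 (edgeR adjusted p = 0.973). These p-values do not show that the levels are alike.

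The ratio of summed accessory to summed core TPM within a library was 9.26, 15.7, 8.90, 9.33, 25.4 and 10.4 in ganglion replicates 1 to 6. Cerebellum libraries had 6.77 to 7.97 and spinal cord libraries 7.57 to 8.56. Every ganglion library was above every other library, and replicates 2 and 5 were far above the other ganglion libraries. The 2 groups differ in gene length. As a percentile of all tested genes, length ran from 0.43 (ndufa1) to 23.1 (ndufv3) in accessory subunits. In core subunits it ran from 5.36 (ndufs3) to 41.7 (ndufs1). The part of length in the ratio was not tested.

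In complex II, 2 of 4 genes rose in each comparison, beside 29.6% and 14.5% of all genes. Without ganglion replicates 2 and 5, 0 of 4 rose in either, beside 28.3% and 10.7% of all genes. With scaling by length 0 of 4 rose in either, beside 28.3% and 12.8%. sdhc, a membrane anchor and the most abundant of the 4 by mean TPM, ran from 144 through 206 to 343 CPM in the ganglion, from 82.7 through 103 to 113 in the cerebellum and from 81.2 through 91.1 to 109 in the spinal cord. Its log2 values were 1.11 ± 0.180 and 1.18 ± 0.181 (edgeR adjusted p = 1.92e-05 and 1.96e-05), and without ganglion replicate 5 they were 0.92 and 0.99, under the threshold. sdhb, the iron-sulfur subunit, rose by 1.20 and 1.04, at 0.82 and 0.67 without replicates 2 and 5, and the latter at 0.97 without replicate 5 and at 0.98 with the replicate number as a block. sdha, the flavoprotein that oxidises succinate, had 72.3, 115 and 159.5 CPM in the ganglion, 119, 136 and 149 in the cerebellum and 135.5, 141 and 184 in the spinal cord. Its log2 values were −0.22 and −0.37 (edgeR adjusted p = 0.242 and 0.0724), and the groups overlapped. Per length and without TMM scaling, sdha was at 67.1 ± 30.0 TPM in the ganglion, 114 ± 9.99 in the cerebellum and 110 ± 13.4 in the spinal cord (SD, n = 6 each).

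Assembly factors of complex I, which build the complex without staying in it, had another pattern. Against the cerebellum 1 of 8 rose, where 29.6% of all genes were called higher, and the median was 0.05. It was ndufaf8, at 1.23 (0.98 without ganglion replicate 5, under the threshold). Against the spinal cord ndufaf1, ndufaf4 and ndufaf8 rose, where 14.5% of all genes were called higher, and the median was 0.82. Of these, ndufaf1 was at 0.70 without replicates 2 and 5. With scaling by length 0 of 8 rose in either comparison, where 28.3% and 12.8% of all genes were called. Their summed TPM was 181 ± 23.2 in the ganglion, 273 ± 38.2 in the cerebellum and 138 ± 10.9 in the spinal cord (SD, n = 6 each). ndufaf7, a methyltransferase that acts on complex I, was lower in every ganglion library (6.11 to 15.4 CPM) than in any cerebellum library (20.4 to 28.7 CPM), with log2 −0.98 ± 0.206 (edgeR adjusted p = 0.000312), just under a 2-fold difference; without ganglion replicate 1 it was −1.03.

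No subunit of complexes I or II was called between spinal cord and cerebellum. Over the 61 genes 0 were higher and 4 lower in the spinal cord, where 28.9% of all tested genes were called higher and 16.3% lower, and the median was −0.12 beside 0.08 over all genes. With no minimum fold the edgeR counts were 4 higher and 12 lower, where 35.7% and 29.3% of all genes were called. Ranges did not overlap for 4 genes higher and 11 lower in the spinal cord (27.3% and 24.6% of all genes). The 4 lower genes were 3 assembly factors and atp5s. atp5s, known as coupling factor B in mammals, ran from 11.1 through 14.8 to 15.3 CPM in the spinal cord, from 25.4 through 31.9 to 38.5 in the cerebellum and from 28.3 through 31.9 to 51.3 in the ganglion. It fell by 1.17 ± 0.162 on the log2 scale in the spinal cord against the cerebellum (edgeR adjusted p = 3.54e-06), and it rose by 1.33 ± 0.163 in the ganglion against the spinal cord (edgeR adjusted p = 1.29e-06).

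ndufaf4 was at 4.11, 6.29 and 8.45 CPM as lowest, median and highest in the spinal cord and at 9.31, 13.1 and 17.6 in the cerebellum, without overlap, with log2 −1.05 ± 0.202 (edgeR adjusted p = 0.000158). Its ganglion libraries were at 12.6, 14.7 and 19.5 CPM. ndufaf5, a hydroxylase of ndufs7, was at 16.1, 18.8 and 24.2 CPM in the spinal cord, 34.9, 40.4 and 43.9 in the cerebellum and 20.4, 25.8 and 36.2 in the ganglion; its log2 value was −1.04 ± 0.156 (edgeR adjusted p = 9.35e-06). ndufaf2 was at 6.07, 8.21 and 10.3 CPM in the spinal cord, 12.1, 16.2 and 22.5 in the cerebellum and 9.29, 14.2 and 24.0 in the ganglion, with log2 −1.04 ± 0.223 (edgeR adjusted p = 0.000448). Without the 4 libraries highest in acta1, 3 of them spinal cord, ndufaf5 was at −0.86 and ndufaf2 at −0.98. Then 2 of the 4 calls were left, where 15.3% of all genes were called lower.

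Gene length moved with the ganglion difference. Relative length, taken as count over TPM, placed 51 of the 61 genes in the shortest of 5 equal classes of tested genes. In that class the median log2 fold change of the other genes was 0.63 against the cerebellum and 0.48 against the spinal cord (4088 genes). For the 2332 of these with a mean TPM at least that of the lowest of the 61 genes, it was 0.58 and 0.67. That of the 51 was 1.22 and 1.28. In the longest class the other genes had medians of −0.25 and −0.25, and those with such a mean TPM had −0.63 and −0.26. Across the 61 genes length and log2 fold change had a Spearman rho of −0.64 and −0.62. Mean TPM over the 18 libraries and log2 fold change had one of 0.64 and 0.56. Both are given as a description, since the genes share libraries, and the part of mean TPM was not tested. A pair of nearly the same length, picked after the values were seen, was ndufb9 and ndufb11, at the 2.71 and 2.67 percentiles of length. Their log2 values against the cerebellum were 0.55 and 2.02, the latter lower without ganglion replicates 2 and 5, as given above. The part of length in either value was not tested.

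**Figure D4:**
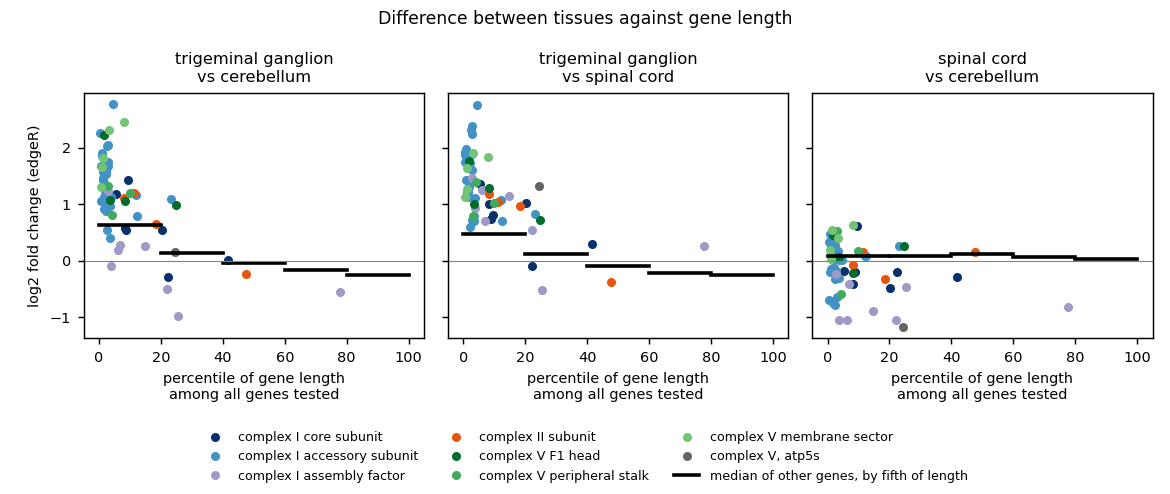
Log2 fold change of the 61 genes against the percentile of gene length among tested genes, with black bars for the median of the other genes in each of 5 length classes. Most of the genes lie in the shortest class, where the other genes also have a median above 0 in both ganglion comparisons.

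When scaling factors were computed within 20 bins of length, the medians were 0.42 and 0.51. The 7 genes that rose against the cerebellum were atp5f1e, atp5mc3, atp5mg, ndufa1, ndufb11, ndufb3 and ndufs5, and the 6 against the spinal cord were atp5mc3, atp5s, ndufa7, ndufb11, ndufb3 and ndufb5. Under it ndufaf2 and ndufaf7 fell against the cerebellum, by 1.02 and 1.08, and 0 fell against the spinal cord, where 22% and 16.4% of all genes were called lower. In the spinal cord against the cerebellum 0 rose and 3 fell, where 28.5% and 16.9% were called.

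Limma on log2(TPM + 1), without TMM scaling, called 10 of the 61 genes higher and 3 lower against the cerebellum, where it called 15.2% and 35% of all genes. Against the spinal cord it called 17 higher and 0 lower, where 5.92% and 21.4% of all genes were called, and in the spinal cord against the cerebellum 0 higher and 5 lower, where 19.8% and 19.1% were.

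Ganglion replicates 2 and 5 were highest in 2 measures: the median deviation in log2 CPM of all genes of the shortest class was 0.49 in replicate 2 and 0.54 in replicate 5, and 0.11 to 0.26 in the other ganglion libraries, and that of the 61 genes was 1.14, 1.27 and 0.30 to 0.71. Without these 2 libraries 22 genes rose against the cerebellum and 30 against the spinal cord, where 28.3% and 10.7% of all genes were called higher; 0 fell against either, where 21.7% and 16.1% were called lower, and 0 rose and 4 fell in the spinal cord against the cerebellum, where 29.5% and 16.5% were. The part of length, or of what sets these libraries apart, in the difference was not tested.

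Schwann cell markers (4 of 5 measured) summed to 2221 to 6002 TPM in the ganglion. They summed to 1323 to 2475 TPM in the spinal cord and 78.1 to 145 in the cerebellum. Against the spinal cord, prx, pmp22 and egr2 rose by log2 6.86, 6.00 and 4.37. mpz was not called there, at 0.44 (edgeR adjusted p = 0.232). Spinal cord means were 3546 CPM for mpz and 15.3, 45.3 and 3.66 CPM for prx, pmp22 and egr2. The counts of these markers in the spinal cord were thus mostly mpz. Which cells of the spinal cord carried mpz was not tested, so the sum there cannot be read as an amount of Schwann cells. Between spinal cord and cerebellum egr2 was not called (0.73). Fibroblast markers (3 of 6 measured) summed to 98.1 to 311, 6.64 to 44.0 and 2.71 to 9.07 TPM in the same order of tissues. The summed neuron markers were lowest in the ganglion, at 173 to 406 TPM in ganglion libraries, 814 to 1075 in cerebellum libraries and 419 to 623 in spinal cord libraries (4 of 6), but not each of them: elavl4 was higher in the ganglion than in the cerebellum by log2 1.53 (edgeR adjusted p = 1.25e-08), and elavl3 and elavl4 were at 0.14 and 0.15 against the spinal cord, neither called. Ganglion replicate 5 held the highest ganglion sums of the Schwann cell and fibroblast markers, 6002 and 311 TPM. It also held the lowest sum of the neuron markers, 173 TPM. Ganglion replicate 2 was at 3296, 179 and 318 TPM in the same order. The part of these cell types in the result was not tested. Without the 4 libraries highest in acta1, 39 of the 61 genes rose against each tissue. Of all genes 29.2% were then called higher against the cerebellum and 13.8% against the spinal cord.

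Other mitochondrial and energy genes were counted in lists by function. Beside each count stand the shares of all tested genes: 29.6% higher and 22.3% lower against the cerebellum, 14.5% and 17.3% against the spinal cord, and 28.9% and 16.3% in the spinal cord against the cerebellum. Of 71 mitochondrial ribosomal proteins, which translate the subunits encoded by mitochondrial DNA, 8 rose and 1 fell against the cerebellum, 41 rose and 0 fell against the spinal cord, and 8 fell in the spinal cord against the cerebellum; the medians were 0.46, 1.08 and −0.58. Without ganglion replicates 2 and 5, 2 rose against the cerebellum and 16 against the spinal cord, and with scaling by length 2 rose and 2 fell against the cerebellum and 6 rose and 1 fell against the spinal cord. mrps25 rose by 1.84 and 2.56, but its ganglion SD was above its mean (122 ± 148 CPM, SD, n = 6). mrps17, with the largest rise against the cerebellum, rose by 2.02 and 1.92 (54.0 ± 22.3 CPM in the ganglion). Of 13 genes of pyruvate dehydrogenase and the citric acid cycle, 5 rose against the cerebellum and 3 against the spinal cord, with idh2, mitochondrial isocitrate dehydrogenase, at 4.09 and 1.22.

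Of 9 regulators of mitochondrial biogenesis, 6 fell and 0 rose against the cerebellum, with a median of −1.18 (3 fell with scaling by length), and 1 rose and 1 fell against the spinal cord. esrrg, a nuclear receptor that acts on mitochondrial genes, had log2 −2.14 for ganglion and −1.99 for spinal cord, each against the cerebellum. Of 9 glycolysis genes, 2 rose and 1 fell against each tissue, with medians of 0.04 and 0.01. Of 17 assembly factors outside the symbol rule, 3 rose and 1 fell against the cerebellum and 5 rose against the spinal cord, with sdhaf1, an assembly factor of complex II, at 2.98 and 2.33. Of 3 mitochondrial carriers, slc25a4, the ADP/ATP carrier, was called against the cerebellum, but its ganglion level was 344 TPM in replicate 1, the library highest in acta1, and 0.0924 to 10.6 TPM in the others.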

How the data were processed

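Raw counts per gene and library were deposited in a single table together with TPM values, which the authors corrected for gene length and scaled within each library, per the file headers. The submitters' processing notes name STAR 2.7.7a, Subread 2.0.1 with featureCounts, Trimmomatic 0.39 and CASAVA 1.8.2. The strand setting, genome build and annotation were not given in the sources used here. Reads shared by near-identical or overlapping genes could therefore be split or lost. Columns of sample values not used numbered 0.

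Counts were filtered with filterByExpr, scaled by TMM and fitted in edgeR 4.0.16 (R 4.3.3) to all 18 libraries by tissue, with 15 residual degrees of freedom; the quasi-likelihood F-test was adjusted over all 20691 genes. Standard errors are the log2 fold change over the root of F, an approximation. Alternatives used limma 3.58.1 on log2(TPM + 1), DESeq2 1.42.0, no filter, a replicate block, libraries left out and scaling by length. Python 3.11.15 with matplotlib 3.10.9 drew the figures. The fit was tested on simulated data with known changes. These data held no trend with gene length, no library set apart by its profile and no pairing. The simulation therefore cannot show how the calls depend on them.

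The members and lists were chosen with earlier results of these data known. Values in all libraries are given for the 4 called genes with the largest rise and fall in each comparison and for the most abundant of each complex; others that are named were picked by complex after their values were seen. A single core subunit of complex I is counted in the totals but not reported here by name.

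Libraries are from 6 fish, but labels do not say that a replicate number is a fish. Same-numbered libraries deviated together, with r from 0.124 to 0.403 (ganglion and spinal cord), 0.216 to 0.404 (spinal cord and cerebellum) and 0.0759 to 0.297 (ganglion and cerebellum, where 4 of 6 pairs were above 0.1). The first 2 of these meet the criterion for pairing from the data, and the last does not. Even so, the best match of a ganglion library in the cerebellum was its own number in 6 of 6, and the reverse in 6 of 6. For ganglion and spinal cord this held in 5 and 6 of 6, and for spinal cord and cerebellum in 6 and 6. The main fit does not use pairing, and counts with the replicate number as a block are given below. No library copied another, since chi-square over its degrees of freedom was at least 12.8 between libraries of a tissue.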

Additional observations from a re-analysis of the deposited data

Results flagged for a closer look

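Of 183 groups of 6 libraries (61 genes in 3 tissues), 6 held a library whose gap to its nearest neighbour, divided by the group's range, was above 0.625; chance flags about 1 in 20 groups. Ganglion replicate 5 was the highest for ndufb3, at 822 CPM beside 72.8 to 346 in the other ganglion libraries, and for ndufs5, at 861 CPM beside 188 to 398. Cerebellum replicate 4 was the highest for ndufa6, at 51.2 CPM beside 37.8 to 42.4, and for ndufs7, at 96.5 CPM beside 73.9 to 80.9. In the spinal cord, replicate 2 was the highest for ndufa5, at 51.5 CPM beside 39.5 to 42.9, and replicate 4 for ndufv2, at 62.4 CPM beside 46.0 to 50.6.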

How the results depend on the processing

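The counts of genes called rest on ganglion replicates 2 and 5 and on the kind of scaling. DESeq2 size factors and the DESeq2 Wald test kept the 38 calls against the cerebellum and the 41 against the spinal cord. The size factors called 29.6% and 15% of all genes higher, and the Wald test 25.2% and 12.5% of 28031. Both settings use 1 factor per library, as TMM does. No gene called at 2-fold or more changed direction under an alternative. Of genes called with no minimum fold, 6 turned negative against the cerebellum with limma and 6 with scaling by length, and 5 against the spinal cord with scaling by length. Against the cerebellum, limma on log2(TPM + 1) gave 10 higher and 3 lower (median 0.48), leaving out ganglion replicates 2 and 5 gave 22 higher, and scaling by length gave 7 higher and 2 lower (median 0.42). Lower genes against the cerebellum numbered 3 with no minimum fold and 1 without the 4 libraries highest in acta1. They numbered 0 to 1 when ganglion replicate 5 or 1 was left out. Of all genes 33%, 22.7%, 21.9% and 22.8% were called lower in these settings in turn. Leaving out ganglion replicate 5 or 1 gave 32 to 39 higher, where 28.9% and 29.2% of all genes were. Against the spinal cord, limma gave 17 higher (median 0.70), scaling by length 6 higher (median 0.51), and no minimum fold 1 lower. In the spinal cord against the cerebellum, no minimum fold gave 4 higher and 12 lower, and limma a median of −0.34. Leaving out the 4 acta1-high libraries gave 2 lower there, where 15.3% of all genes were. Limma on TPM moved the median of all genes to −0.52, −0.37 and −0.14 in the 3 comparisons, and the share of calls that were higher from 57.1% to 30.2%, 45.5% to 21.7% and 64.0% to 50.9%.

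With the replicate number as a block, 36 genes rose against the cerebellum and 39 against the spinal cord. Of all genes 29% and 13.9% were called higher. The genes ndufa3 (0.99) and ndufs4 (0.99) lost the call in the first, and ndufv2 (0.98) and sdhb (0.98) in the second. In the spinal cord against the cerebellum 4 fell, where 16.6% of all genes were called lower.

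List medians moved as follows, in the order ganglion against cerebellum, ganglion against spinal cord, and spinal cord against cerebellum. Under limma, assembly factors outside the rule were at −0.45, 0.24 and −0.61, citric acid cycle genes at −0.12, −0.099 and −0.080, glycolysis at −0.67, −0.64 and 0.011, and mitochondrial ribosomal proteins at −0.22, 0.59 and −0.79. Under scaling by length, assembly factors outside the rule were at −0.10 and 0.39 and ribosomal proteins at −0.19 and 0.38 in the ganglion comparisons. Without ganglion replicates 2 and 5, glycolysis was at 0.36 and 0.40 in these, and ribosomal proteins at 0.72 against the spinal cord.

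Values that changed sign included the following, all of genes not called at 2-fold in that comparison. Limma turned ndufs7 (−0.098), ndufv2 (−0.056) and sdhd (−0.083) negative against the cerebellum. Scaling by length did so there for atp5po (−0.041), ndufa13 (−0.087), ndufa5 (−0.0075) and ndufs7 (−0.042). It also did so against the spinal cord for atp5pd (−0.072), ndufa13 (−0.36) and ndufa8 (−0.067). Against the cerebellum, ndufb8 was at −0.23 (limma) and −0.47 (length), ndufb9 at −0.097 and −0.33, and sdha at 0.0011 without ganglion replicates 2 and 5. ndufs1 was at −0.69 with limma, −0.0024 with DESeq2 size factors, −0.0055 with DESeq2, −0.016 with no filter, −0.037 with the block, −0.024 without the acta1-high libraries and −0.020 to 0.16 without ganglion replicate 1 or 5. Against the spinal cord, scaling by length gave −0.15 for ndufb8 and −0.15 for ndufb9, limma gave −0.19 for ndufs1, and ndufv1 was at 0.045 without replicate 5 and 0.19 without replicates 2 and 5. The cause of these changes was not tested.

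The planned ratios between paralogues were not run: 0 of the named pairs had both symbols here, and the only pair alike but for the last letter, sdha and sdhb, are different subunits. All of these genes passed the filter on low counts; whether depth bears on the calls was not tested.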
